A study of Arabidopsis thaliana with 8 samples.

Results

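The 29 serine carboxypeptidase-like (SCPL) genes described here were all those on the array whose symbol in the platform's gene annotation begins with scpl and a number, on a probe set assigned to a single gene. They were taken from 22746 probe sets that are not controls, and each gene had 1 such probe set. Another 2 probe sets whose annotation lists several genes, SCPL genes among them, were left out. The RefSeq annotation of TAIR10.1 holds 51 SCPL genes, and the 22 that are not members were not analysed here. Symbols are printed as the platform annotation spells them.

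Whole Arabidopsis thaliana plants of 2 accessions were compared at developmental stage 3.90, with 4 arrays of Cal-0 (stock N1063) and 4 of Col-4 (stock N933). The titles class Cal-0 as calcicole, the term for plants that favour limy ground, and Col-4 as non-calcicole. Both accessions grew indoors on sand at 23 degrees Celsius, on Long Ashton nutrients at 0.5 strength with 1 mM calcium chloride, so the 2 groups differ in accession and share the calcium supply. They also shared a stratification of 48 h at 4 degrees Celsius, a light value of 160 and a humidity value of 34. The labels number the arrays as replicates 1 to 4 of each accession without saying that they come from separate plants, and p-values then measure only the spread between these arrays.

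Serine carboxypeptidases are secreted or vacuolar enzymes of the alpha/beta hydrolase fold, in which a serine, an aspartate and a histidine form the catalytic site, and the peptidases among them remove amino acids from the carboxyl end of proteins. In plants part of the family lost peptidase activity and became acyltransferases, which pass an acyl group from a glucose ester to an acceptor. The sinapoylglucose transferases that make sinapoylmalate in leaves and sinapoylcholine in seeds are the best known of these. In Arabidopsis the known acyltransferases lie among the genes numbered SCPL1 to SCPL19, while genes with higher numbers include relatives of cereal serine carboxypeptidases and of yeast carboxypeptidase Y.

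The deposited values are MAS5 signals, a measure of probe set intensity that had been brought to a common level on each array, with array medians between 44.0 and 50.1. Col-4 replicate 4 stood apart in the hybridisation controls, whose geometric mean signal was 1208 there and 391 to 703 on the other 7 arrays. The arrays numbered 1 to 4 and 5 to 8 in the titles, each with 2 arrays of either accession, also differed, the 25S ribosomal RNA control being at 413 to 633 on the first set and at 1921 to 7476 on the second. RNA quality was read from the actin and GAPDH controls, as the log2 of 3′ over 5′ signal, which was higher in Cal-0 (1.70 and 1.52) than in Col-4 (0.955 and 0.927) on arrays 1 to 4, and overlapped on arrays 5 to 8. Of the leaf and root markers 4 of 12 had a named probe set. The leaf genes LHCB4.1 and RCA were at 4518 to 9487 over all arrays, and the root genes PYK10 and EXPA7 at 329 to 1106 and 22.9 to 85.7, so tissue of both organs was represented. None of the 8 flower and seed markers was analysed here.

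Most of the measured SCPL genes reached the mean signal required for testing, and those that did not included both members from the range of the acyltransferases. Only 2 members come from that range, and the sinapoylglucose transferases described above were not among the genes analysed. The values therefore do not describe the acyltransferase part of the family as a whole. A probe set was tested when its mean over the 8 arrays was at least 25, which 18 of the 29 members (62.1%) and 66.7% of all probe sets reached. For 11 members every array also exceeded 40.8, and 42.8% of all probe sets did so. This was the highest value of the 27 control probe sets for bacterial genes that are not hybridisation controls, called the bacterial controls here. That reference level was chosen after the data were seen. For 12 members no array exceeded it, and 6 lay on either side of it. Signals of different probe sets depend on their own probes, so the order of the genes on this scale is no order of transcript abundance.

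**Figure D1:**
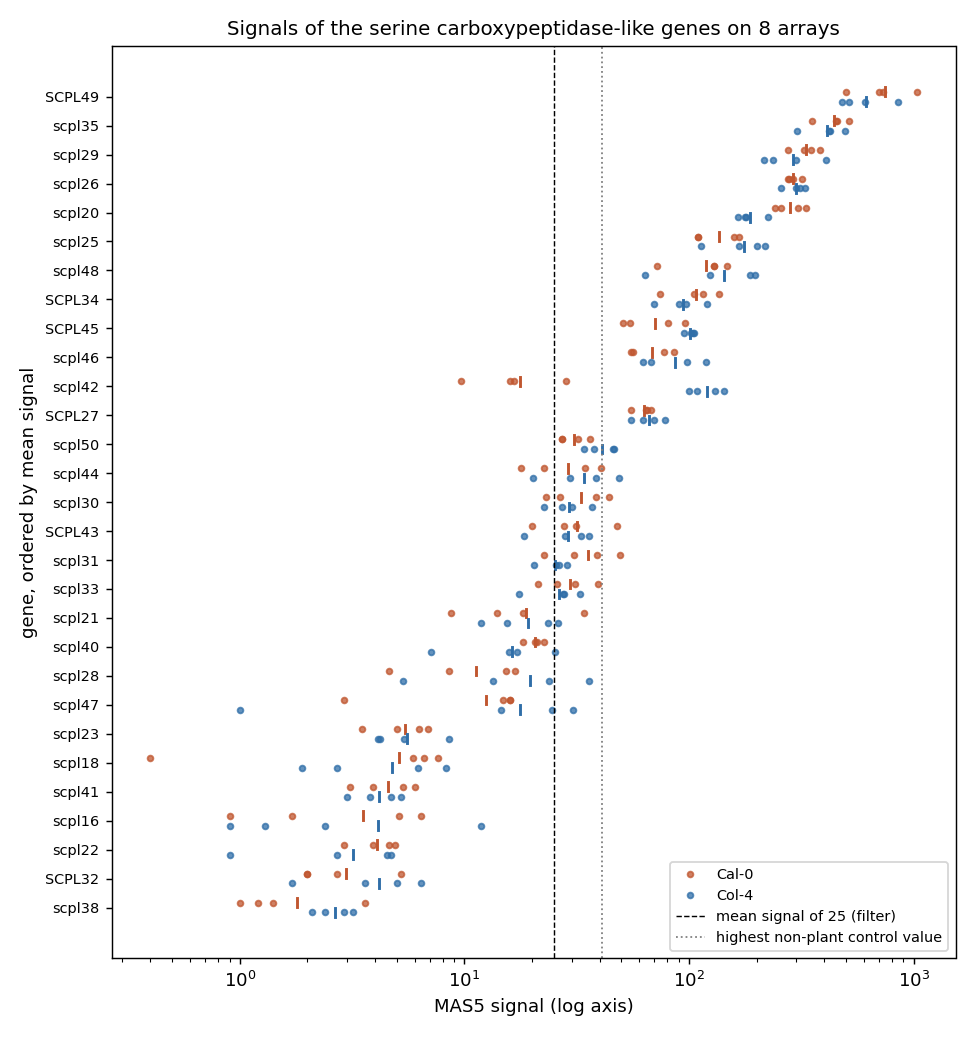
MAS5 signal (log axis) of the 29 SCPL genes on each of the 4 Cal-0 and 4 Col-4 arrays, with points for arrays and vertical ticks for accession means, ordered by mean signal. The dashed line is the mean of 25 required for testing. The dotted line is the highest value, 40.8, of the bacterial controls other than the hybridisation controls. The accessions are apart at scpl42, with Cal-0 at 9.6 to 28.3 and Col-4 at 99.7 to 143.5, while in most other genes their points mix.

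The genes with a mean signal of at least 100 numbered 8. SCPL49, annotated as a carboxypeptidase Y, the vacuolar peptidase type, reached a signal of 743 ± 221 in Cal-0, and 613 ± 167 was measured for Col-4 (mean ± SD of 4 arrays here and below). scpl35 was at 443 ± 66.0 and 410 ± 79.6, in the same order. scpl29 was at 333 ± 44.5 and 289.5 ± 86.0. These genes were thus clearly measured in both accessions, with means that differed by less than the array spread. scpl26 was the steadiest of the strong signals, its means being 290.0 ± 20.4 for Cal-0 and 298 ± 31.3 for Col-4. scpl20, scpl25, scpl48 and SCPL34 completed this set with means of 235, 156, 131 and 101 over the 8 arrays.

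A further 10 members had means between 25 and 100. Among them SCPL45, scpl46 and SCPL27 exceeded the bacterial controls on every array, and SCPL27 varied little, between 55.3 and 78.4. scpl42 did so on the 4 Col-4 arrays and on none of the 4 Cal-0 arrays. scpl50, scpl44, scpl31, scpl30, SCPL43 and scpl33 had means of 27.9 to 35.9, close to the filter.

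The 11 members under the filter had means of 2.23 to 18.95, and none of their values exceeded 35.8. Both members of the acyltransferase range, scpl16 and scpl18, were among them, with means of 3.81 and 4.95. The other 9 were scpl21, scpl22, scpl23, scpl28, SCPL32, scpl38, scpl40, scpl41 and scpl47. Their differences between the accessions lay between -0.33 (scpl28) and 0.21 (scpl40) on the log2(signal + 16) scale, and in all 11 the accessions overlapped. With a pseudocount of 1 the range was -0.61 (scpl28) to 0.43 (scpl40). The accessions did not overlap in 8.39% of all probe sets. When the filter was dropped and all probe sets were tested, none of the 11 passed, the smallest limma adjusted p being 0.705, and none had an unadjusted p under 0.05.

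In the order of annotated genes, 3 pairs of members are neighbours. scpl22 and scpl23 stand next to each other on chromosome 2, and both were under the filter. scpl28 and scpl26, also adjacent on chromosome 2, fell on different sides of it, with scpl26 above the bacterial controls on all arrays and scpl28 at 4.6 to 35.8. scpl41 and scpl42 are separated by 2 annotated genes on chromosome 5. scpl41 stayed at 3.0 to 6.0 on all 8 arrays, too low to look for a difference like that of scpl42.

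The comparison of Cal-0 with Col-4 addresses how plants of a calcicole and a non-calcicole accession differ under a single calcium supply. The family showed 1 called difference, the low signal of scpl42 in Cal-0, and the remaining 17 tested members differed by at most 1.47-fold on the log2(signal + 16) scale without passing. limma called 1 of 18 tested members (5.56%) at a Benjamini-Hochberg adjusted p under 0.05, and 4.29% of all 15165 tested probe sets, so the share in the family was near the background. An unadjusted p under 0.05 was seen in 3 members (16.7%), against 15.5% of all. The tested members had 9 higher and 9 lower means in Cal-0, with a median log2 difference of 0.02, beside 0.03 over all tested probe sets.

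scpl42 (AT5G42240), a member from the part of the family outside the acyltransferase range, had Cal-0 signals of 9.6, 28.3, 16.6 and 16 and Col-4 signals of 130.3, 143.5, 108.6 and 99.7 in replicates 1 to 4. Every Cal-0 value was below every Col-4 value, and the lowest Col-4 array stood well above the highest of Cal-0. The means were 17.6 ± 7.79 and 121 ± 19.99. The fitted log2 difference was -2.04 (standard error 0.18, 95% interval -2.43 to -1.64, limma adjusted p = 6.26e-05). This difference was already known from earlier results of these data, so the interval and p describe it and are no independent test. The Cal-0 mean alone was under the mean signal required for testing, and scpl42 reached that level through its Col-4 signals. The Cal-0 signals lay within the range of the bacterial control values, which had a median of 3.2, a 95th percentile of 13.2 and a maximum of 40.8, and 3 of the 4 were above that percentile. The size of the difference depends on the pseudocount, and was -2.78 with 1 and -1.33 with 50, so no linear fold is given. Whether the scpl42 probes match the Cal-0 sequence was not tested, so the low value is described as a signal and not as a transcript level.

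The scpl42 difference was present in both sets of arrays, at -2.18 within arrays 1 to 4 (limma adjusted p = 0.00187) and -1.89 within arrays 5 to 8 (limma adjusted p = 0.00335). When the control 3′ to 5′ ratio entered the fit it was -1.94. Without Col-4 replicate 4, the array with the highest hybridisation controls, it was -2.11. In both sets the Cal-0 arrays carry the lower title numbers, so array order within a set and accession cannot be told apart. The genes flanking scpl42 were looked at after its value had been seen. Of the 3 nearest tested genes on each side with a named probe set, none passed in limma, beside 4.29% of all tested probe sets. An unadjusted p under 0.05 was seen in 2 of them, beside 15.5% of all. These 6 genes had log2 differences from -0.60 to 0.50, and so few genes cannot be told apart from those shares. In the gene order they lay 5 to 11 genes from scpl42 on one side and 2 to 9 on the other. Of the 6 neighbours 3 were lower in Cal-0, among them the closest, AT5G42250, at -0.60 (limma adjusted p = 0.141). The difference at scpl42 was known beforehand, so its being larger than at these 6 neighbours is a description and no test.

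**Figure D2:**
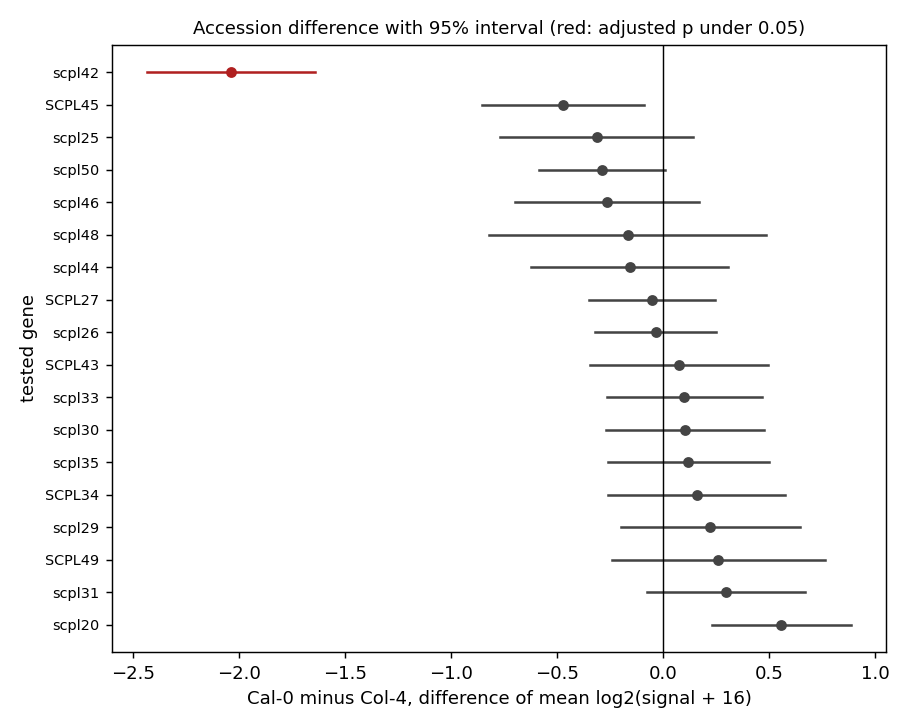
Difference between the Cal-0 and Col-4 means of log2(signal + 16) for the 18 tested SCPL genes, with points for the estimate and lines for the 95% interval of the limma fit; red marks an adjusted p under 0.05. scpl42 stands alone at -2.04, and the other 17 lie between -0.47 (SCPL45) and 0.56 (scpl20).

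scpl20 (AT4G12910) had the second smallest p in the family, in the opposite direction. Its Cal-0 signals were 240.5, 256.5, 303.9 and 330.1, and its Col-4 signals 164.9, 179.5, 225.3 and 177.0. All Cal-0 values exceeded all Col-4 values, although the gap between the nearest was narrow. Groups without overlap were seen in 2 of the 18 tested members, scpl42 and scpl20 (11.1%), and in 10.3% of all tested probe sets. The log2 difference was 0.56 (standard error 0.15, 95% interval 0.23 to 0.89, limma adjusted p = 0.0632). In a fit blocked on replicate number scpl20 was called (limma adjusted p = 0.025), and 2 of 18 members were then called beside 8.57% of all tested probe sets. It also passed with the sets of arrays as a block (limma adjusted p = 0.0174), a fit that called 7.22% of all tested probe sets, and in 6 of the 21 alternatives in all.

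SCPL45 (AT1G28110) was at 95.9, 80.6, 54.4 and 50.6 in Cal-0 and at 101.6, 94.6, 103.6 and 105.2 in Col-4. The Col-4 values lay close together, while the Cal-0 values on arrays 5 to 8 were lower than those on arrays 1 to 4. Over all arrays the log2 difference was -0.47 (95% interval -0.86 to -0.09, limma adjusted p = 0.194) and the accessions overlapped. Within arrays 1 to 4 it was -0.13 and within arrays 5 to 8 -0.81, the latter passing at a limma adjusted p of 0.0341. A test of whether the accession difference itself changed between the sets, added after seeing the data, did not pass for SCPL45 (limma adjusted p = 0.999). That test called no probe set of the 15165, with an unadjusted p under 0.05 in 607 of them and in 2 members, SCPL45 and scpl31.

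The next members by p had intervals that reached 0. scpl50 was at 36.2, 27.1, 27.2 and 32.1 in Cal-0 against 46.4, 34.1, 37.8 and 45.9 in Col-4. Its log2 difference was -0.29 (95% interval -0.59 to 0.01), and only the highest Cal-0 value passed the lowest of Col-4. scpl31 was at 49.4, 38.8, 22.6 and 30.7 against 26.3, 20.4, 25.5 and 28.5, with a log2 difference of 0.30 (95% interval -0.08 to 0.67). The high Cal-0 values of scpl31 were those of replicates 1 and 2, and the difference was 0.61 within arrays 1 to 4 and -0.02 within arrays 5 to 8.

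scpl25 was at 166.9, 158.0, 110.0 and 109.8 in Cal-0 and at 217.7, 201.0, 167.6 and 113.1 in Col-4. Its log2 difference was -0.31 (95% interval -0.77 to 0.14). scpl46 was at 55.0, 56.5, 77.2 and 85.6 in Cal-0 and at 62.6, 68.0, 98.2 and 118.5 in Col-4, which gave a log2 difference of -0.26 (95% interval -0.70 to 0.17). In both genes the accessions overlapped, both arrays of one set lay above both of the other in either accession, and Cal-0 was the lower of all 4 pairs of like replicate number. With the replicate block the unadjusted p was 0.0328 for scpl25 and 0.0444 for scpl46, and neither passed (limma adjusted p = 0.177 and 0.210). With the 3′ to 5′ covariate the differences were -0.14 and -0.43. Without Col-4 replicate 4 they were -0.49 and -0.12, and without Col-4 replicate 1 that of scpl25 was -0.20.

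For the other 11 tested members the log2 differences lay between -0.17 (scpl48) and 0.26 (SCPL49). The narrowest interval was that of scpl26, from -0.32 to 0.25, followed by SCPL27 with -0.35 to 0.24, so differences beyond these sizes are outside the intervals of those 2 genes. The widest was that of scpl48, from -0.82 to 0.49, whose Col-4 arrays spread more than those of any other tested member. For SCPL49 the interval was -0.24 to 0.76 and for scpl35 -0.26 to 0.50. The intervals of scpl29, SCPL34, scpl30, scpl33, SCPL43 and scpl44 all held 0 as well.

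**Figure D3:**
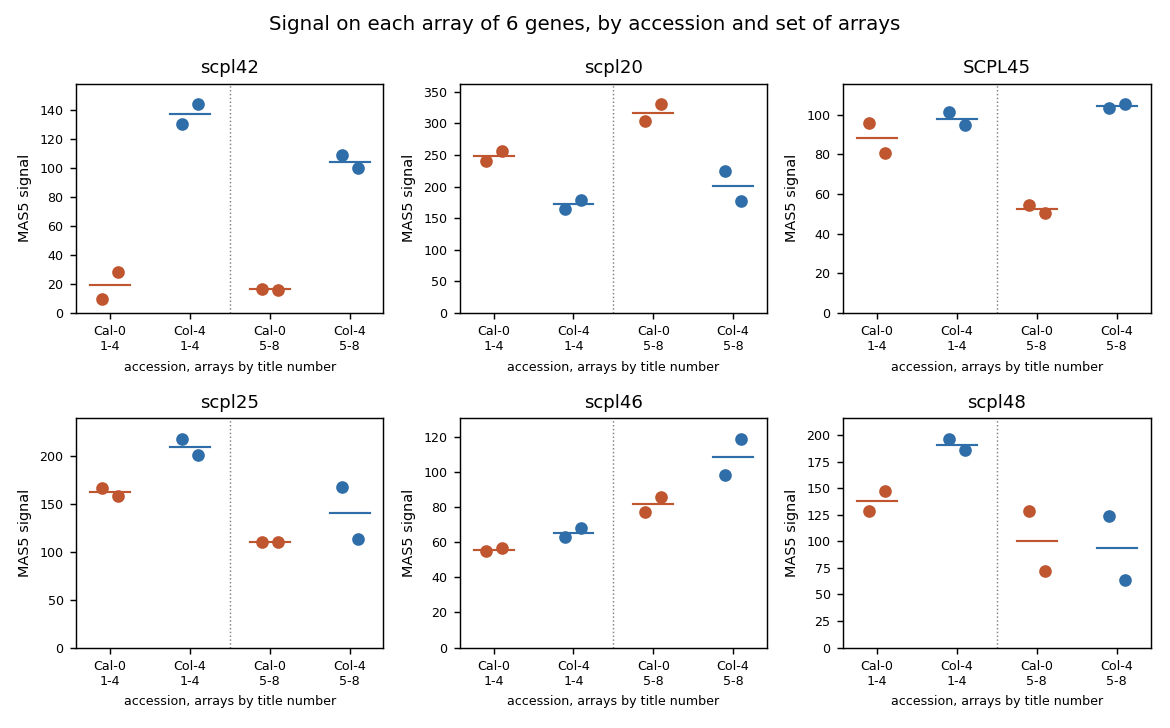
MAS5 signal of scpl42, scpl20, SCPL45, scpl25, scpl46 and scpl48 on each array, with points for arrays, horizontal lines for the mean of 2 arrays, and columns by accession and by title number (arrays 1 to 4 left of the dotted line, 5 to 8 right of it). The accessions separate in both sets at scpl42 and scpl20, whereas scpl46 is higher and scpl25 lower on arrays 5 to 8 in either accession.

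Differences between the sets of arrays, which are not groups of the study, were about as frequent in the family as differences between accessions. In a fit with terms for accession and set, limma called 2 of 18 members (11.1%) between arrays 5 to 8 and arrays 1 to 4, and 8.03% of all tested probe sets. Between the accessions the same fit also called 2 members, scpl42 and scpl20, and 7.22% of all tested probe sets. scpl46 was higher on arrays 5 to 8 by 0.52 on the log2 scale (standard error 0.11, limma adjusted p = 0.0272). scpl25 fell by 0.53 on them (standard error 0.13, limma adjusted p = 0.0378). In scpl46 all 4 values of arrays 5 to 8 exceeded all 4 of arrays 1 to 4. No member was called when Cal-0 replicate 1, 2 or 4 or Col-4 replicate 1 or 2 was left out. Without Col-4 replicate 4 scpl46 alone was called, and without Cal-0 replicate 3 scpl46 and scpl48 were. With single arrays left out the differences were 0.46 to 0.57 for scpl46 and -0.62 to -0.42 for scpl25. scpl48 had the greatest difference, -0.71 (limma adjusted p = 0.0649), and passed with a pseudocount of 50 (limma adjusted p = 0.0492) and without Cal-0 replicate 3 (limma adjusted p = 0.0327).

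Among the stronger signals the lowest array of both accessions was often replicate 4. This was so for scpl25, SCPL27, scpl29, SCPL34, scpl35, scpl48 and SCPL49, 7 of the 18 tested members (38.9%), and for 10.8% of all tested probe sets. Of the 8 members with a mean of at least 100 it held for 6, and for 13.2% of the 6614 probe sets with such a mean. scpl48 was at 71.8 in Cal-0 replicate 4 against 128.6 to 147.4 on the other Cal-0 arrays, and at 63.7 in Col-4 replicate 4 against 123.8 to 196.3. SCPL49 was highest in replicate 3 of both accessions, at 1036 and 850, and lowest in replicate 4, at 502 and 480. The 3′ to 5′ log2 ratio was highest in replicate 4 of both accessions too, at 1.96 and 2.39. Of the organ markers, root PYK10 had its lowest signal of either accession in replicate 4 (Cal-0 395, Col-4 329). Leaf LHCB4.1 (Cal-0 7090, Col-4 9487) and RCA (Cal-0 6094, Col-4 6671) had their highest there. Root EXPA7 was lowest in replicate 4 for Col-4 only. Whether RNA quality or the share of leaf and root had a part in this pattern was not tested. The pattern was noticed in these data and is given as a description.

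**Figure D4:**
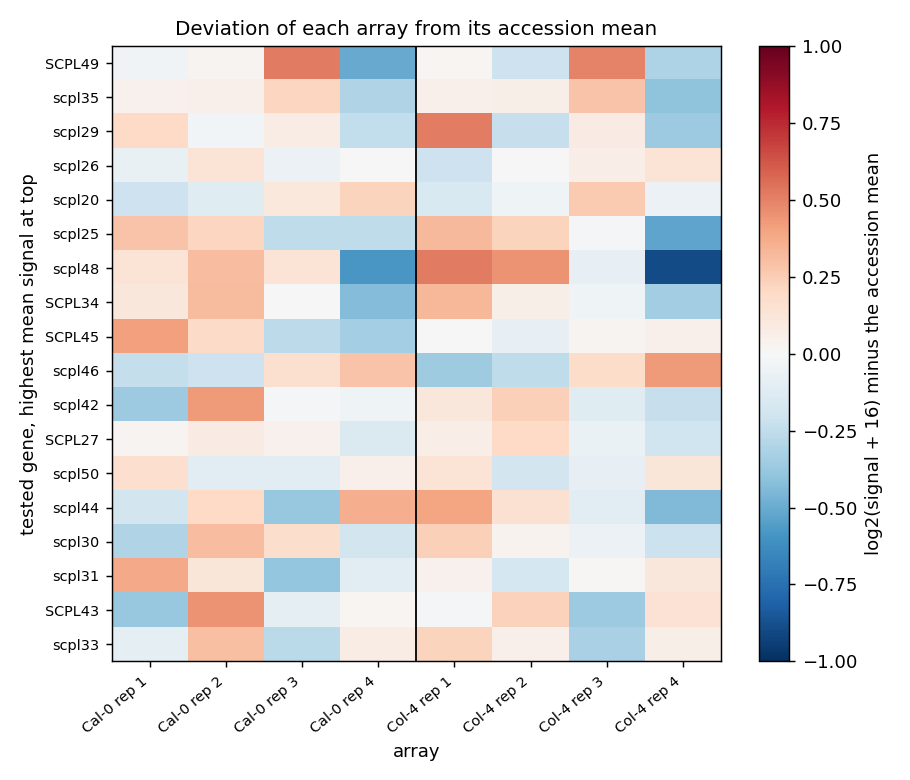
Deviation of each array from its accession mean on the log2(signal + 16) scale (colour bar) for the 18 tested SCPL genes, with Cal-0 arrays left of the line and Col-4 arrays right of it. Several of the upper rows, among them SCPL49, scpl35, scpl48 and SCPL34, are blue in replicate 4 of both accessions, and scpl46 is red there.

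The acyltransferases of the family draw on glucose esters from the phenylpropanoid pathway, and 8 of the 28 listed genes of that pathway and of its glucosyltransferases had a named probe set. Of the 6 tested none passed in limma, where 4.29% of all tested probe sets did, and 1 had an unadjusted p under 0.05, beside 15.5% of all. The means of 5 of the 6 were higher in Cal-0, as were those of 55.2% of all tested probe sets, and the median log2 difference was 0.30, beside 0.03. UGT72E2, which glucosylates the monolignols, was at 98.6, 96.4, 141.1 and 120.5 in Cal-0 and at 62.6, 46.5, 73.1 and 95.6 in Col-4. Its Cal-0 values all exceeded those of Col-4, but the nearest, 96.4 and 95.6, were almost equal. Groups did not overlap in 10.3% of all tested probe sets. The log2 difference of UGT72E2 was 0.62 (limma adjusted p = 0.100), and 0.48 with the 3′ to 5′ ratio as a covariate. UGT84A3, of the glucosyltransferases that make hydroxycinnamate glucose esters, was at 178 ± 59.6 and 124 ± 47.5 (log2 difference 0.49, limma adjusted p = 0.445). With that covariate its difference was 0.30. Blocking on replicate number led to 2 calls among the 6, UGT72E2 (limma adjusted p = 0.0216) and UGT84A3 (limma adjusted p = 0.0468), in a fit that called 8.57% of all tested probe sets. HCT, the hydroxycinnamoyl transferase on the way to lignin, differed by -0.18, REF1, the aldehyde dehydrogenase that yields sinapate and ferulate, by 0.21, UGT84A4 by 0.21 and UGT72E1 by 0.39. UGT84A1 and UGT72E3 were under the filter, with no array above 2.4 and 6.2.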

How the data were processed

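RNA of whole plants was hybridised to 1-colour ATH1 arrays, 4 of each accession. The authors deposited MAS5 intensity values, as named in the submitters' processing notes; for its settings, the sources used here give none. With 2% trimmed from each end, every array had a mean of 100.01, so the arrays had been scaled. No detection calls were used, and the number of arrays limits the precision.

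Genes were named from the platform annotation and RefSeq TAIR10.1, which also gave the gene order. Signals were taken as log2(signal + 16) without further normalization, which understates the change of low genes. The 15165 probe sets with a mean of at least 25 were fitted in limma 3.58.1 under R 4.3.3 (lmFit, eBayes, two-sided, no covariate) with Benjamini-Hochberg adjustment over all of them and a threshold of 0.05. The fit was also run on simulated data with independent noise. That run held no difference between the sets of arrays and no shared deviation of like-numbered arrays, so it does not test the fit under them. Members, lists, tests and alternatives were chosen with earlier results of these data known. Members past the threshold and the 6 with the next smallest p are given by array, and the others by means or ranges.

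Arrays with the same replicate number deviated together from their accession means, with correlations of 0.278, 0.376, 0.478 and 0.403, so the number was treated as pairing the arrays in an alternative; the evidence is from the data and not the labels, and in replicates 1 and 2 unlike numbers correlated at 0.273 and 0.382. No arrays held identical values. No sequence is printed, since the tables used here hold none of these genes' sequences.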

Additional observations from a re-analysis of the deposited data

Results flagged for a closer look

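In 74 groups of 4 arrays, the members and the phenylpropanoid genes in each accession, 4 had an extreme array by Dixon's test at 95%, taken on log2(signal + 16), where about 1 in 20 would be expected by chance. All 4 concern genes under the filter. scpl47 was at 2.9 in Cal-0 replicate 3 against 14.9 to 16 on the other Cal-0 arrays. scpl16 was at 11.8 in Col-4 replicate 1 against 0.9 to 2.4. scpl38 was at 3.6 in Cal-0 replicate 2 against 1.0 to 1.4. UGT84A1 was at 1.8 in Cal-0 replicate 3 where the other 3 Cal-0 arrays were at 1.7, a gap of a single step of the deposited decimals.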

How the results depend on the processing

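scpl42 kept its direction and its call in all 20 alternatives that tested it, with differences from -2.78 to -1.33 and limma adjusted p of at most 0.00335; with a mean signal of at least 100 it was not tested, and the 1 called member there was scpl20 (limma adjusted p = 0.0455). The count of called members was 2 with a pseudocount of 50, with trend and robust estimation, with the replicate block and with the sets of arrays as a block, scpl20 being the added gene, and 2 within arrays 5 to 8, where SCPL45 was added; leaving out single arrays gave 1 to 2 (2 without Col-4 replicate 3). The phenylpropanoid count of 0 became 2 with the replicate block and with the sets as a block, and 0 to 1 without single arrays (1 without Col-4 replicate 4). The count between sets of arrays was 3 with a pseudocount of 50, where scpl48 was added, 1 with a pseudocount of 1, with no filter and with a mean of at least 100, and 0 to 2 without single arrays. The replicate block changed no other call. It called 8.57% of all tested probe sets, and the fit with the sets as a block 7.22%. For the other alternatives no share over all tested probe sets was taken. Their counts can therefore not be set against a background. Of the 18 tested members 9 changed sign in an alternative, none of them called. Within arrays 1 to 4 scpl26 was at 0.10 and scpl30 at -0.032; within arrays 5 to 8 SCPL27 was at 0.025, scpl31 at -0.017, scpl44 at 0.11, scpl48 at 0.094 and HCT at 0.062; with the 3′ to 5′ ratio as a covariate SCPL27 was at 0.017 and scpl48 at 0.11. Without single arrays the ranges were -0.46 to 0.027 for scpl48, -0.074 to 0.20 for SCPL43, -0.0086 to 0.19 for scpl33, -0.0015 to 0.20 for scpl30, -0.12 to 0.014 for SCPL27, -0.10 to 0.010 for scpl26 and -0.014 to 0.22 for scpl35. The cause of these changes was not tested. Signals near 0 limit what can be said of the 11 members under the filter.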
